A study of Mus musculus with 2 samples.

Results

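The collagen genes of mouse tongue were examined in 2 poly(A) RNA libraries, 1 of the circumvallate papillae (CvP), the taste bud-bearing folds at the back of the tongue, and 1 of tongue epithelium without papillae (Epi). Members were the rows of the expression table whose gene symbol begins with Col, a number, the letter a and a second number. This pattern matched 43 of 18498 rows. Of these, 42 were collagen genes, and the other was *Col4a3bp*, which codes for a ceramide transfer protein and was left out of every count (RPKM 11.8 (CvP) and 7.07 (Epi)). *Emid2*, the older symbol of *Col26a1*, does not match the pattern. It was listed at an RPKM of 0.00 (CvP) and 0.01 (Epi). *Col6a3* was not analysed here. RNA came from C57BL/6J mice of 12 to 30 weeks, with no treatment or altered allele named, and 20 or more animals were pooled for each tissue. Male sex is stated in the methods for the RT-PCR mice and a standard diet for mice in general. Neither is stated there separately for the sequenced mice. The methods state for the CvP used in RT-PCR that epithelium next to the taste buds was part of the sample. With 1 library a tissue there was no replicate, so no test across samples was possible and no p-value is given.

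Collagens are secreted or membrane-bound proteins whose chains wind into triple helices, with glycine at regular intervals along each chain. Fibrillar collagens such as types I and III give connective tissue its strength and are made mainly by fibroblasts. Type IV collagen builds the sheet-like network of basement membranes. In stratified epithelium the basal cells are held to that sheet by hemidesmosomes, which contain the transmembrane type XVII collagen, and the sheet is tied to the connective tissue beneath by anchoring fibrils of type VII collagen. Other classes decorate fibrils (the FACIT collagens), form beaded filaments (type VI), form short-chain networks (types VIII and X) or carry heparan or chondroitin sulphate chains (the multiplexins, types XV and XVIII).

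Levels are given as RPKM, reads per kilobase of exon model scaled to the mapped reads of the library, as listed to 2 decimals. From the step between the lowest values the libraries held about 28400000 (CvP) and 27900000 (Epi) mapped reads. The reads of each gene were derived from this, and each CvP/Epi ratio carries a 95% exact (Clopper-Pearson) interval. The intervals cover counting error only, not the rounding of RPKM or the spread between animals. In rows with an RPKM of at least 1 in both libraries the median CvP/Epi ratio was 1.31, a value to set beside each gene's ratio. The tissue labels were checked against defining markers. All 8 taste bud markers were higher in the CvP by more than 3-fold (summed RPKM 459 (CvP) and 5.75 (Epi)), led by *Gnat3* at 127 and 0.03 and *Krt8* at 113 and 0.36. Of the 8 markers of stratified epithelium the CvP value was higher in 4 and the Epi value in 4. *Krt5*, a keratin of basal cells, was at 1506 (CvP) and 1271 (Epi), while *Krt14* was at 295 and 1140.2.

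Most of the summed collagen level in both tissues came from a single gene, the transmembrane collagen of hemidesmosomes. The RPKM of the 42 genes summed to 184.6 (CvP) and 118 (Epi). *Col17a1* alone held 83.4% of that sum in the CvP and 83.4% in the Epi. An RPKM of at least 1 was reached by 9 collagen genes in the CvP library and 6 in the Epi library. The other 33 genes stayed below 1 in both libraries, with a highest value of 0.81 (CvP) and 0.62 (Epi), and 4 genes (*Col10a1*, *Col13a1*, *Col19a1* and *Col6a5*) were listed at 0.00 in both. The classical fibrillar genes were among the low ones, at 0.25 or less in either library for types I and III. The CvP value was higher in 26 genes, the Epi value in 10, and 6 were listed as equal. No share of all rows stands beside this count. The median ratio of 1.31 given above leans the same way, so the count does not set the collagens apart. In these bulk samples fewer cells of a type and less RNA per cell cannot be told apart.

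**Figure D1:**
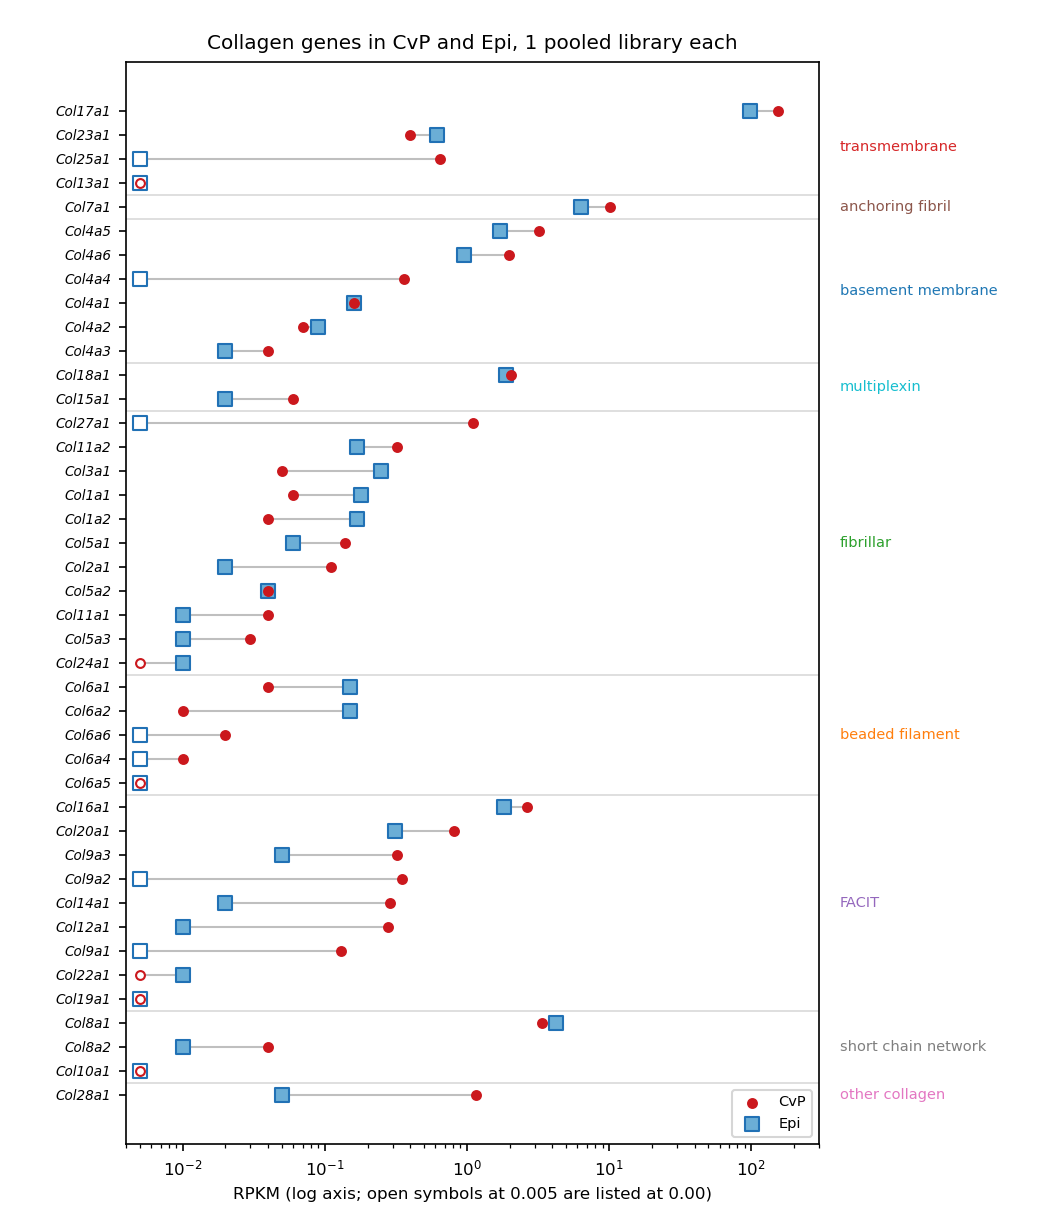
RPKM (log axis) of the 42 collagen genes in the CvP library (red circles) and the Epi library (blue squares), grouped by class. Open symbols, drawn at the left edge, mark genes listed at 0.00. *Col17a1* stands apart at 154 and 98.5, *Col7a1* follows, and most fibrillar, beaded filament and FACIT genes lie below 1 in both libraries.

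A difference was counted when the RPKM ratio passed 3, the ratio limit used in the study, with more than 3 estimated reads in the higher library. By this rule 13 of the 42 collagen genes (31.0%) were higher in the CvP, against 20.8% of all rows, and 4 (9.52%) were higher in the Epi, against 2.67% of all rows. Another 18 lay within 3-fold, of which the interval of the ratio was above 1 in 8, below 1 in 3 and held 1 in 7, and 7 genes had 3 or fewer estimated reads in both libraries. The counts came entirely from genes of low level. In the 35 collagen genes with a mean RPKM under 1, 37.1% had the higher value in the CvP and 11.4% in the Epi by this rule, and in all 6666 rows of that level the shares were 34.5% and 4.38%. The share of collagen genes higher in the CvP was thus close to that of other genes of low level. Of the 7 collagen genes with a mean RPKM of at least 1, 0 passed 3-fold in either direction. Of all rows of that level 13.1% passed it toward the CvP and 1.71% toward the Epi, and 7 genes are too few to differ from these shares. A CvP RPKM above 10 together with a ratio above 3 was found in 0 collagen genes and in 2.35% of all rows. Among collagens only *Col17a1* and *Col7a1* had a CvP RPKM above 10, so this count too is no contrast.

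On a log2 scale with 0.1 added to each RPKM, the median CvP/Epi difference was 0.31 over the 42 genes and 0.49 over all rows. After division by the median ratio of 1.31, taken over the 10363 rows with an RPKM of at least 1 in both libraries, the collagen median turned to -0.087. By class the medians were 0.24 for the 11 fibrillar genes, 0.54 for the 6 basement membrane genes, 0.32 for the 4 transmembrane genes and 1.2 for the 9 FACIT genes. The fibrillar median became -0.15 and the transmembrane median -0.070 after division by the median ratio, while that of the basement membrane genes stayed positive at 0.15.

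**Figure D2:**
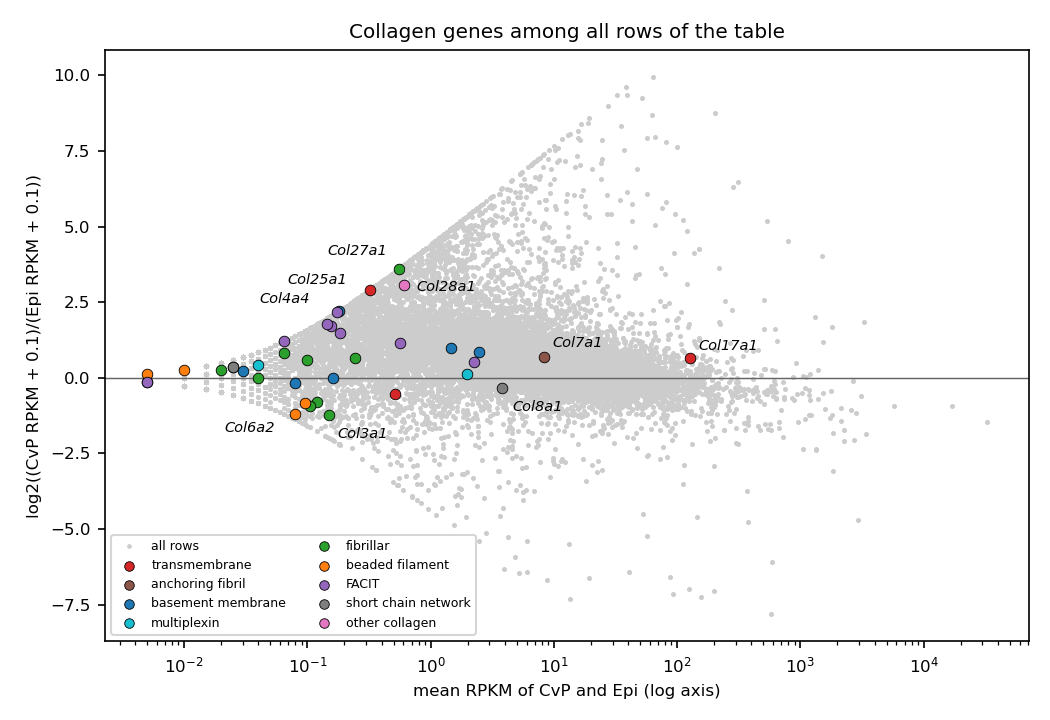
Log2 CvP/Epi difference with 0.1 added to each RPKM against the mean RPKM of both libraries (log axis), for all rows with a value above 0 (grey) and for collagen genes by class (colours, 38 of 42, the rest being listed at 0.00 in both). The 7 collagen genes with a mean of at least 1 have ratios between 0.789 and 2.08, within the grey cloud, and the collagen genes far above 0 have mean values below 1.

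*Col17a1* codes for type XVII collagen (BP180), the transmembrane collagen of hemidesmosomes in basal keratinocytes. It spans 47720831 to 47766532 of chromosome 19 (minus strand, NCBI37/mm9). Its RPKM was 154 (CvP) and 98.5 (Epi), the highest of any collagen gene in both libraries, and it ranked 256 (CvP) and 464 (Epi) among all rows. The CvP/Epi ratio was 1.56 (95% interval 1.53 to 1.60). Divided by that median ratio it was 1.19. The listed length of this row, 20.5 kb, was 3.68 times that of its longest coding transcript in GENCODE M1, 5.59 kb. If all its reads lay in that transcript, its level per transcript length would be 566 (CvP) and 362 (Epi), so the listed values can understate it, and the ratio is the same either way.

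The window around the *Col17a1* start is shown because this gene carries most of the collagen signal. It spans chr19:47691993-47692292 on GRCm38.p6 (minus strand, 250 bases before the RefSeq start and 50 after it). Capitals mark matches on either strand to short elements found in many promoters, the CCAAT box, the GC box (GGGCGG) and the TATA element (TATAAA).
Col17a1: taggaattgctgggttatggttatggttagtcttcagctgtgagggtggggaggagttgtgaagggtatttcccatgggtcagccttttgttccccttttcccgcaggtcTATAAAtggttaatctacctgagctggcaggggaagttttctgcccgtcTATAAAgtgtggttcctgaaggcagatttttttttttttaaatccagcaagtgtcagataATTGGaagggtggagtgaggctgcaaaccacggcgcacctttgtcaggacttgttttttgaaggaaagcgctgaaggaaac
It held 2 matches to TATAAA, an element found in 13.6% of 32851 RefSeq windows of this length, 1 to CCAAT (37.4% of windows) and 0 to GGGCGG (35.7% of windows). A match is a run of letters and not a tested site.

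The other transmembrane collagens were low, and they differed in direction. *Col23a1* had an RPKM of 0.40 (CvP) and 0.62 (Epi), a ratio of 0.645 (0.461 to 0.889). *Col25a1*, a neuronal transmembrane collagen first found in amyloid plaques, had 0.65 in the CvP, about 113 reads, and was listed at 0.00 in the Epi. Set against a floor of 3 Epi reads it was at least 37.1-fold higher in the CvP. *Col13a1* was listed at 0.00 in both. *Col17a1* and *Col25a1* were thus the ones with more CvP signal and *Col23a1* with more Epi signal, with *Col25a1* the only transmembrane gene past 3-fold.

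*Col7a1*, the anchoring fibril collagen (chromosome 9, 108855790 to 108886920), was second in level. Its RPKM was 10.2 (CvP) and 6.32 (Epi), a ratio of 1.61 (1.51 to 1.71). The counting intervals of the *Col17a1* and *Col7a1* ratios overlap. In 7 other genes of hemidesmosomes and their laminin anchor (*Itga6*, *Itgb4*, *Dst*, *Plec*, *Cd151*, *Lama3* and *Lamb3*) the CvP value was higher in all 7 and past 3-fold in 0. *Itgb4*, the integrin chain that binds plectin, had an RPKM of 58.4 (CvP) and 25.9 (Epi), a ratio of 2.25 (2.17 to 2.33). *Cd151*, *Lamb3* and *Itga6* had CvP values of 52.5, 51.6 and 43.4 with ratios of 2.52, 2.25 and 2.37. The median log2 difference of these 7 genes was 1.17, beside 0.49 over all rows. That median was above the values of *Col17a1* (0.65) and *Col7a1* (0.68) on the same scale. Not every member was: *Dst*, at 0.20, lay below both collagens, and *Plec*, at 0.75, was close to them.

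All 6 type IV chains had a row, and they lie in the genome as head-to-head pairs. *Col4a1* and *Col4a2* code for the chains of the common basement membrane network, *Col4a5* and *Col4a6* for a network of skin and other epithelia, and *Col4a3* and *Col4a4* join *Col4a5* in the networks of kidney glomerulus, lung and inner ear. The listed rows of *Col4a1* and *Col4a2* (chromosome 8) are separated by 2 bases, those of *Col4a4* and *Col4a3* (chromosome 1) by 71 bases and those of *Col4a6* and *Col4a5* (chromosome X) by 1342 bases on NCBI37/mm9.

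The pair *Col4a5* and *Col4a6* held most of the type IV signal. *Col4a5* (137909962 to 138123778) had an RPKM of 3.20 (CvP) and 1.72 (Epi), a ratio of 1.86 (1.62 to 2.14). *Col4a6* (137599946 to 137908619) had 1.98 and 0.95, a ratio of 2.08 (1.74 to 2.51). Both ratios stayed above 1 when divided by the same median ratio, at 1.42 and 1.59, and their intervals overlap. Within a library, *Col4a5* was at 1.62 times the level of *Col4a6* in the CvP (interval 1.41 to 1.84) and 1.81 times in the Epi (1.5 to 2.2), and these intervals overlap.

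*Col4a1* and *Col4a2* were far lower, with close values in both tissues. *Col4a1* was listed at 0.16 in both libraries, 30 estimated reads each, a ratio of 1.00 (0.573 to 1.69). *Col4a2* had 0.07 (CvP) and 0.09 (Epi), a ratio of 0.778 (0.354 to 1.77), and at this depth no difference could be detected. *Col4a1* was at 2.29 times the level of *Col4a2* in the CvP (1.13 to 4.68) and 1.78 times in the Epi (0.962 to 3.58). These genes share 22 exon bases on opposite strands, and the counting was not stated to use strand.

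The pair on chromosome 1 was uneven. *Col4a4* (82447298 to 82583424) had an RPKM of 0.36 in the CvP, about 80 reads, and was listed at 0.00 in the Epi, at least 26.2-fold higher in the CvP against a floor of 3 reads. Its neighbour *Col4a3* (82583496 to 82718634) had 0.04 and 0.02, about 10 and 5 reads, a ratio of 2.0 (0.613 to 7.34). In the CvP the *Col4a4* level was 9.0 times that of *Col4a3* (4.53 to 19.0).

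RefSeq promoter windows of some type IV genes are shown. These neighbours had like ratios in 1 pair (*Col4a5* and *Col4a6*) and unlike levels in another (*Col4a4* and *Col4a3*). No window is shown under the name of *Col4a3*, so the windows of that pair are not compared. The windows are on GRCm38.p6, 5′ to 3′ along the named gene, with the same capitals, for *Col4a6* (chrX:141474027-141474326, minus strand), *Col4a5* (chrX:141475169-141475468, plus strand), *Col4a4* (chr1:82586800-82587099, minus strand) and *Col4a2* (chr8:11312555-11312854, plus strand).
Col4a6: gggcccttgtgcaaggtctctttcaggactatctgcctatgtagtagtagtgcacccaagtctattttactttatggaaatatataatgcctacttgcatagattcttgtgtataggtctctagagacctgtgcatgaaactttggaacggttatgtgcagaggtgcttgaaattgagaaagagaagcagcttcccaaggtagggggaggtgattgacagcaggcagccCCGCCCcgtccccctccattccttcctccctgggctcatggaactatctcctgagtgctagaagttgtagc
Col4a5: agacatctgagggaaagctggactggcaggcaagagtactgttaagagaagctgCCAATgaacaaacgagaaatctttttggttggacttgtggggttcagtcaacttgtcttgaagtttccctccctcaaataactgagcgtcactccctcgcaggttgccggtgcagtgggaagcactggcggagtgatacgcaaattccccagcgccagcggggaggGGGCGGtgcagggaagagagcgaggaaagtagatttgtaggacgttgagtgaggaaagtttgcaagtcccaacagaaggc
Col4a4: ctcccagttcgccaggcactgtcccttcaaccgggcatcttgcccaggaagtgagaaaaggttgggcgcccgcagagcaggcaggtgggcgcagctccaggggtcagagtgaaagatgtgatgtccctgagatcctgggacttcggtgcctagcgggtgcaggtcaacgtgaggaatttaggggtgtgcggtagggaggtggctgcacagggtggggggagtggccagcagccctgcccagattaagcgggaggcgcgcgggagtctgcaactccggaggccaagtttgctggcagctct
Col4a2: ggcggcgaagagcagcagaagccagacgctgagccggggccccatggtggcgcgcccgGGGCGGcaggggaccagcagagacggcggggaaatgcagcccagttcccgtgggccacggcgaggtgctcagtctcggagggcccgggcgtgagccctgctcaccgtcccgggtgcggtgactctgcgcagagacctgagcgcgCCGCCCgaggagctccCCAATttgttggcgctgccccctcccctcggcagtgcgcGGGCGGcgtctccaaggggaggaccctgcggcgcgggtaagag
The *Col4a2* window also holds the start of *Col4a1* on the other strand, the transcripts overlapping by 22 bases. It was richest in G and C, at 73.7%, with 3 matches to GGGCGG and 1 to CCAAT. The *Col4a4* window had 63.3% G and C and 0 matches to these 3 elements. *Col4a5* and *Col4a6*, whose starts are 1342 bases apart, had 52.7% and 48.3% G and C and 1 match to GGGCGG each. In all, 35 collagen symbols had 38 windows in the RefSeq table. Of these windows, 23 (60.5%) held GGGCGG, 13 (34.2%) CCAAT and 5 (13.2%) TATAAA, beside the shares in all windows given above.

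Multiplexins sit at the outer face of basement membranes. *Col18a1*, the source of endostatin, had an RPKM of 2.06 (CvP) and 1.90 (Epi), a ratio of 1.08 (0.928 to 1.27), which fell to 0.826 when divided by the median ratio of 1.31. *Col15a1* had 0.06 and 0.02, about 9 and 3 reads, and its ratio, 3.0, had bounds of 0.736 and 16.9. The intervals of both genes held 1.

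*Col8a1*, a short-chain collagen known from the cornea and vessel walls, was the only collagen gene with an RPKM of at least 1 and a higher value in the Epi. It was at 3.36 (CvP) and 4.26 (Epi), a ratio of 0.789 (0.699 to 0.891). Its ratio stayed below 1 under both other scalings, at 0.601 divided by the median ratio and 0.951 with RPKM rescaled to a common sum, both outside the interval. Its partner *Col8a2* had 0.04 and 0.01, about 5 reads and 1 read, with a ratio of 4.0 and an interval from 0.550 to 233.

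FACIT collagens, which bind to the surface of fibrils, were higher in the CvP in 5 of 9 genes and in the Epi in 0, beside 20.8% and 2.67% of all rows. These 5 had a mean RPKM under 1, a level at which 34.5% of all rows were higher in the CvP. The highest of the class, *Col16a1*, a FACIT of the skin basement membrane zone, was at 2.66 (CvP) and 1.83 (Epi), a ratio of 1.45 (1.24 to 1.70). *Col20a1* had 0.81 and 0.31, a ratio of 2.61 (1.77 to 3.96). These genes lay within 3-fold, and the 5 that passed it were all below an RPKM of 0.4.

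*Col12a1* and *Col14a1*, which decorate type I fibrils, had like levels in the CvP. The *Col12a1* level was 0.28 (CvP) and 0.01 (Epi), about 91 and 3 reads, a ratio of 28.0 (9.89 to 147). For *Col14a1* it was 0.29 and 0.02, about 53 and 4 reads, a ratio of 14.5 (4.8 to 49.6). The type IX genes, known from cartilage, were low in the CvP and at or near 0 in the Epi. *Col9a2* had 0.35, *Col9a3* 0.32 and *Col9a1* 0.13, about 27, 26 and 14 reads, and in the Epi *Col9a3* had 0.05 and the others were listed at 0.00. Against the floor *Col9a2* was at least 8.94-fold and *Col9a1* at least 4.64-fold higher in the CvP, and *Col9a3* had a ratio of 6.40 (2.22 to 25.2). *Col9a3* shares 234 exon bases with *Tcfl5* on the opposite strand, whose reads could have been counted on it.

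Fibrillar genes did not move as a class. Of the 11, 3 were higher in the CvP (*Col27a1*, *Col2a1* and *Col11a1*), 2 in the Epi (*Col1a2* and *Col3a1*), 5 lay within 3-fold and 1 (*Col24a1*) was at or below 3 reads in both. *Col27a1*, a fibrillar collagen of cartilage (chromosome 4, 62876446 to 62996024), was the only one to reach an RPKM of 1. It had 1.10 in the CvP, about 238 reads, and was listed at 0.00 in the Epi, at least 77.9-fold higher in the CvP against the floor. *Col2a1*, the main collagen of cartilage, had 0.11 and 0.02, about 16 and 3 reads, a ratio of 5.50 (1.5 to 28.1). The interval of *Col11a1*, at 0.04 and 0.01, reached from 0.785 to 38.0 and so held 1.

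The type I and type III genes, the main fibrillar collagens of connective tissue, went the other way. *Col1a1* was at 0.06 (CvP) and 0.18 (Epi), about 8 and 24 reads, a ratio of 0.333 (0.127 to 0.754), on the limit of 3-fold and not counted. *Col1a2* had 0.04 and 0.17, about 6 and 24 reads, a ratio of 0.235 (0.0822 to 0.618). *Col3a1* had 0.05 and 0.25, about 8 and 39 reads, a ratio of 0.20 (0.0814 to 0.438). The *Col1a1* level was 1.06 times that of *Col1a2* in the Epi (0.595 to 2.01). All 3 genes were thus higher in the Epi beyond counting error, at levels of no more than 39 reads.

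The same direction was seen in type VI collagen, the beaded filament of connective tissue and muscle. *Col6a1* had an RPKM of 0.04 (CvP) and 0.15 (Epi), about 5 and 17 reads, a ratio of 0.267 (0.0835 to 0.817). *Col6a2* had 0.01 and 0.15, about 1 and 16 reads, a ratio of 0.0667 (0.00147 to 0.396). *Col6a4*, *Col6a5* and *Col6a6* did not exceed 0.02 in either library. Of these, *Col6a6*, at 4 estimated CvP reads and listed at 0.00 in the Epi, passed the rule and was at least 1.32-fold higher in the CvP against the floor.

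The remaining fibrillar genes lay within 3-fold. *Col5a1*, which regulates the width of type I fibrils, had 0.14 (CvP) and 0.06 (Epi), a ratio of 2.33 (1.21 to 4.69), opposite to type I. *Col11a2* had 0.32 and 0.17, a ratio of 1.88 (1.14 to 3.08). *Col5a2* was listed at 0.04 in both, and *Col5a3* had 0.03 and 0.01 and the interval of its ratio ran from 0.403 to 25.8.

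*Col28a1*, a von Willebrand factor A domain collagen known from the sheaths of peripheral nerve, had the highest level of the 13 genes higher in the CvP. Its RPKM was 1.16 in the CvP, about 139 reads, and 0.05 in the Epi, about 6 reads, a ratio of 23.2 (10.2 to 63.2). *Col28a1* and *Col27a1* were the only 2 of the 13 genes whose RPKM reached 1. In 6 of the 13 the Epi value was 0.00. Of the other 7, in 3 the whole interval of the ratio lay above 3, and in *Col11a1* and *Col8a2* it held 1.

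**Figure D3:**
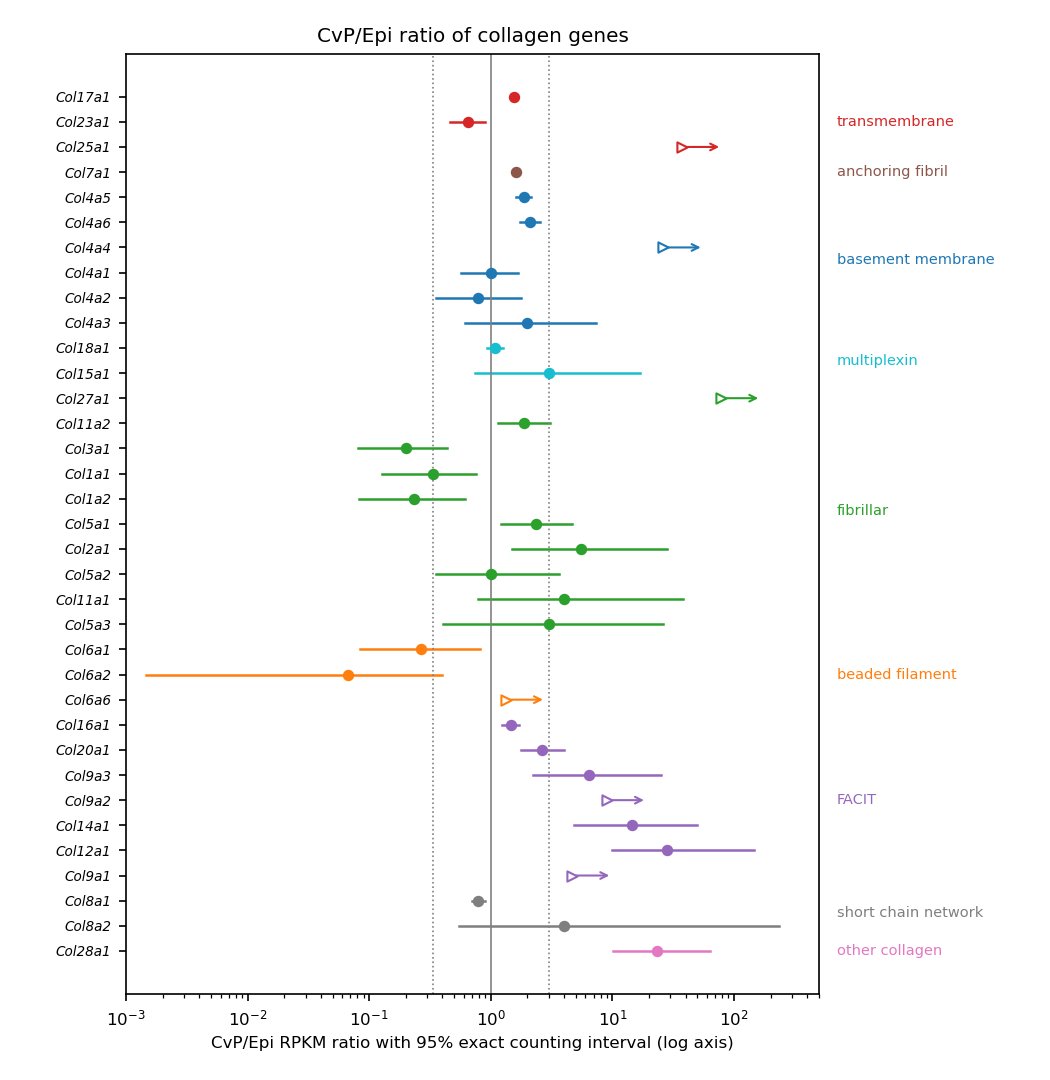
CvP/Epi RPKM ratio (log axis) of the 35 collagen genes with more than 3 estimated reads in either library, by class. Points with lines are ratios with 95% exact counting intervals, open triangles with arrows are lower bounds for genes listed at 0.00 in the Epi, and the dotted lines mark 3-fold. *Col1a1*, *Col1a2*, *Col3a1*, *Col6a1* and *Col6a2* lie left of 1, and *Col17a1*, *Col7a1*, *Col4a5* and *Col4a6* lie between 1 and 3.

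Markers of other cell types also differed between the libraries, and their part in the result was not tested. The counts of every marker list stand beside 20.8% (CvP) and 2.67% (Epi) of all rows. In rows with a mean RPKM under 1 these shares were 34.5% and 4.38%. Skeletal muscle markers were on the side of types I, III and VI, with 6 of 7 higher in the Epi and 0 in the CvP, at a summed RPKM of 4.56 (CvP) and 49.9 (Epi), led by *Acta1* (0.86 and 12.9) and *Ckm* (0.67 and 10.6). The list of pericyte and smooth muscle had 4 of 7 higher in the Epi and 0 in the CvP (summed 3.33 and 6.07). Its highest members were *Des* (0.12 and 2.25) and *Tagln* (1.75 and 1.22), the latter with the higher value in the CvP. The other members past 3-fold, *Myh11*, *Rgs5* and *Cnn1*, did not exceed 0.17 in either library. Of these, *Rgs5* and *Cnn1* were listed at 0.00 in the CvP. The salivary gland list was split, with 3 of 6 higher in the Epi, led by *Lipf* (1.96 and 313) and *Amy1* (0.85 and 80.5), and 2 higher in the CvP, *Pigr* (12.0 and 0.54) and *Aqp5* (6.09 and 0.69).

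Fibroblast markers were divided. Of 12, 5 were higher in the CvP with 4 higher in the Epi, with summed values of 70.1 and 134.9. *Dcn*, a proteoglycan that binds type I fibrils, had an RPKM of 26.1 (CvP) and 127.6 (Epi), and so made up most of the Epi sum. In the other direction *Fbln2* had 18.6 and 0.74, *Fbln1* 18.5 and 2.79, and *Fn1* 0.89 and 0.24. Of the defining fibroblast genes *Pdgfrb*, *Postn* and *Fap* did not exceed 0.17 in either library, *Pdgfra* was higher in the CvP at 1.30 and 0.07, *Lum* was listed at 0.00 in the CvP, and *Twist2* at 0.00 in the Epi.

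On the side of *Col27a1*, *Col28a1*, *Col25a1* and *Col4a4*, beside the taste bud list, stood macrophage markers, of which 6 of 7 were higher in the CvP with 0 higher in the Epi (summed 178 and 7.55, led by *Lyz2*, 132 and 0.43, and *Cd14*, 20.4 and 0.94). Schwann cell and nerve markers were higher in the CvP in 4 of 7 and in the Epi in 0 (summed 55.4 and 37.3, led by *Erbb3*, 40.2 and 27.0, and *Mbp*, 10.3 and 8.94). Endothelial markers had 2 of 7 higher in the CvP with 1 higher in the Epi (summed 7.56 and 0.77, led by *Vwf*, 4.45 and 0.09, and *Tek*, 2.49 and 0.07), while *Cdh5* and *Kdr* did not exceed 0.06 in either library. Of the 8 markers of stratified epithelium 1 was past 3-fold, *Krt14*, at 295 (CvP) and 1140.2 (Epi), and the list was led by *Krt13* (17549 and 47815) and *Krt4* (11801 and 22406).

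Genes that make, bind and degrade collagen were taken from 6 lists. Of 63 listed genes, 59 had a row, 21 of these were higher in the CvP by more than 3-fold and 1 in the Epi. The enzymes that hydroxylate and glycosylate the chains were higher in the CvP in 6 of 14 genes and in the Epi in 0, with a median log2 difference of 1.13. These included the lysyl hydroxylases *Plod1*, *Plod2* and *Plod3*, with ratios of 5.08 (3.72 to 7.08), 4.13 (3.39 to 5.04) and 3.48 (2.95 to 4.10). The most abundant of the list, *P4hb*, a disulphide isomerase that is also a subunit of prolyl 4-hydroxylase, was higher in the Epi, at 346 (CvP) and 544 (Epi). *Glt25d1* (26.5 and 13.0), *Leprel4* (13.7 and 15.7) and *P4ha2* (12.0 and 4.83) followed in level and lay within 3-fold.

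The folding and export list had 6 genes with a row and 0 past 3-fold. *Ppib*, a proline isomerase, was at 139 (CvP) and 118 (Epi), *Serpinh1*, the collagen chaperone HSP47, at 25.3 and 12.2, *Sec23a* at 9.98 and 8.07, and *Creb3l1* at 2.30 and 4.67. In the list of procollagen processing and cross-linking 6 of 13 were higher in the CvP with 0 higher in the Epi, with a median log2 difference of 1.05 and with 8 below an RPKM of 1 in both. *Pcolce2*, an enhancer of the protease that removes the C-propeptide, had 6.59 (CvP) and 0.06 (Epi), a ratio of 109.8 (49.7 to 257). *Bmp1*, that protease, had 6.89 and 2.54, *Adamts14*, which removes the N-propeptide, 1.94 and 0.10, and *Tll1*, a relative of *Bmp1*, 1.06 and 0.00.

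Among collagen receptors 2 of 10 were higher in the CvP with 1, *Itga11*, higher in the Epi. *Itgb1*, the beta chain of the collagen-binding integrins, had an RPKM of 70.3 (CvP) and 16.1 (Epi), a ratio of 4.36 (4.14 to 4.60). *Cd44* (102 and 53.8) and *Ddr1*, a receptor tyrosine kinase that binds collagen (55.8 and 31.0), lay within 3-fold, and *Ddr2*, a related receptor, did not exceed 0.04. *Itga2*, an alpha chain that pairs with *Itgb1*, was at 0.89 and 1.42.

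The degradation list had the highest share of genes past 3-fold among the 6 lists, 7 of 9 (CvP) and 0 (Epi), with a median log2 difference of 1.46. Of the 9 genes, 4 were below an RPKM of 1 in both libraries (*Mmp8*, *Mmp9*, *Mmp13* and *Ctsk*), all of them among those past 3-fold. The lowest, *Mmp8*, had 0.06 (CvP), about 4 reads, and was listed at 0.00 in the Epi. *Mmp14*, a membrane-bound collagenase, had an RPKM of 28.5 (CvP) and 9.47 (Epi), a ratio of 3.01 (2.76 to 3.29), whose interval holds 3. *Mmp2*, a gelatinase that cleaves type IV collagen, was within 3-fold at 29.4 and 17.7. *Timp3*, an inhibitor of these proteases, had 14.1 and 0.80, a ratio of 17.6 (14.4 to 21.5), and *Timp2* had 16.6 and 15.7. The members past 3-fold were the proteases *Mmp8*, *Mmp9*, *Mmp13*, *Mmp14* and *Ctsk* and the inhibitors *Timp1* and *Timp3*. The shares of these lists stand beside 20.8% of all rows and 34.5% of rows with a mean RPKM under 1. Their medians stand beside 0.49 over all rows, and neither shares nor medians were tested.

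**Figure D4:**
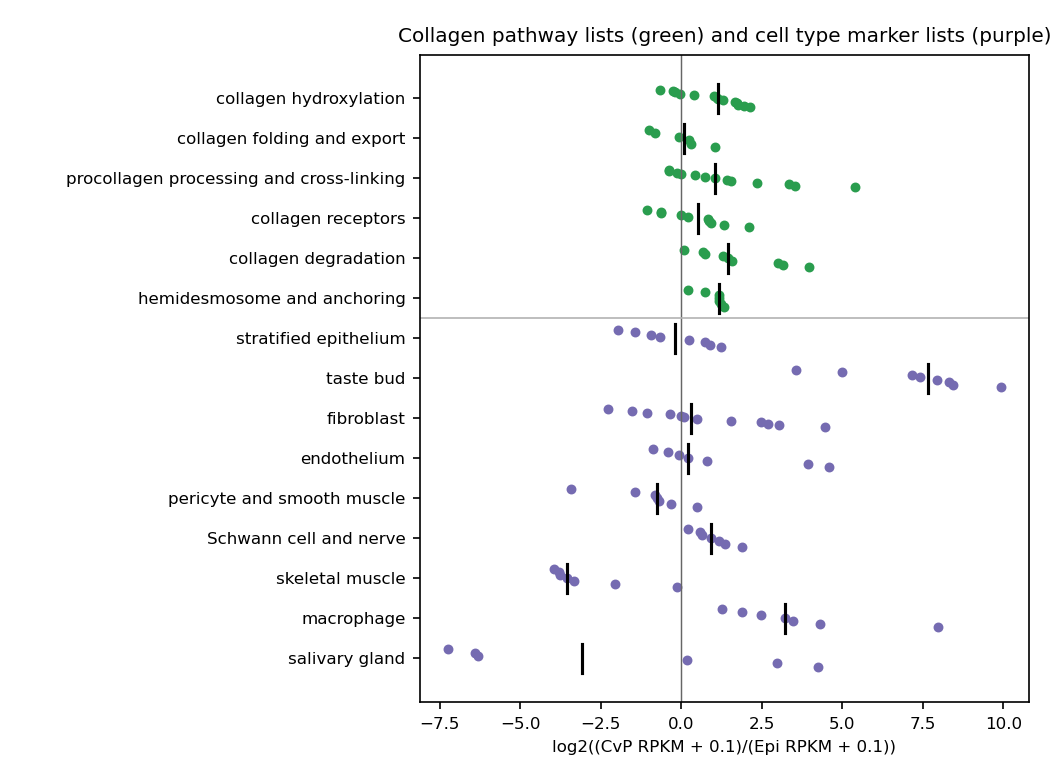
Log2 CvP/Epi difference, with 0.1 added to each RPKM, of each gene in the 6 collagen pathway lists (green) and 9 cell type marker lists (purple), with the list median as a black bar. The 7 hemidesmosome genes all lie to the right of 0, the taste bud and macrophage markers lie to the right, and the skeletal muscle markers lie to the left.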

How the data were processed

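Poly(A) RNA libraries of the circumvallate papillae and of epithelium without papillae, 1 per tissue from pooled mice, were sequenced by the authors in single-end reads. The reads were mapped with Bowtie 0.12.7 to NCBI37/mm9 and quantified with ERANGE. The deposited table gives RPKM and a gene length in kb. The authors' CvP/Epi ratio column was not used.

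Collagen genes and all lists were chosen with earlier results of these data known. Genes with an RPKM of at least 1, and in each list the 4 (pathway) or 2 (marker) highest, were named by rule, and the lower collagen genes and other list members were picked for naming with their values in view. Depth was read from the RPKM steps of 0.352 (CvP) and 0.358 (Epi) in the 163 rows of 0.1 kb. Reads per gene were computed with the listed length or, where shorter, that of the longest coding transcript in GENCODE M1 (same build), which was found for all 42 genes. In 5 of the 42 the listed length was over 1.2 times that of the transcript. Reads are therefore approximate, and values of 0.01 stand for about 1 to 3 reads. Where a gene had 1 to 3 reads in one library the ratio is given with its interval, and where it was listed at 0.00 a bound against 3 reads is given. Ratios in the text have no pseudocount, and log2 differences have 0.1 added, which understates the change of low genes. Reads that match several places and strand were not described for the counting. The depth estimate, the calls and the intervals were tested on simulated data, with changes placed only in rows of many expected Epi reads. The collagen genes past 3-fold had few Epi reads, so that test does not cover their calls or intervals. Promoter windows are those of RefSeq on GRCm38.p6, matched by symbol, and coordinates were not converted between builds. A gene of the pathway lists is not reported here. Other pseudocounts, filters, folds, scalings and lengths were tried. Calculations used Python 3.11.15, numpy 2.4.6, pandas 2.3.3, scipy 1.17.1 and matplotlib 3.10.9.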

Additional observations from a re-analysis of the deposited data

How the results depend on the processing

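No paired analysis was possible because only 1 pooled library was made per tissue and no test was run. The 13 collagen genes higher in the CvP and the 4 higher in the Epi were both counts of low genes. They became 7 and 0 with 0.1 added to each RPKM, 0 and 0 with 1 added, 2 and 0 where RPKM reached 1 in either library, and 0 and 0 in rows with a mean RPKM of at least 1, since adding a constant or a minimum removes low genes by construction. Above 5-fold they were 11 and 1. They were 13 and 5 after scaling by the median ratio or by a trimmed mean, 16 and 4 with RPKM rescaled to a common sum, 18 and 5 above 2-fold, and 14 and 6 without a floor. With the listed length alone and with every row of a repeated symbol they were again 13 and 4. The median log2 difference of 0.31 over the 42 genes turned to -0.087 when divided by the median ratio, and that of the transmembrane genes, 0.32, to -0.070. The transmembrane median was 0.65 where the mean RPKM was at least 1, which left *Col17a1* alone, and 0.46 with RPKM rescaled to a common sum. The fibrillar median, 0.24, turned to -0.15 when divided by the median ratio, and the basement membrane median stayed positive under each alternative run. Both stayed within the median of their members' counting intervals. For the fibrillar genes that range ran from -1.31 to 2.23, too wide to show stability, and it is no interval of the class median. With 0 fibrillar genes at a mean RPKM of at least 1, that alternative gave no value. Of the 145 ratios of single genes under alternatives (29 genes), 113 stayed within the counting interval of the reported ratio and 32 left it, 15 of them with 1 added to each RPKM. In 29 of the 113 only the length used to estimate reads was changed, which cannot alter the ratio. Depth limits the low genes most: at these depths an RPKM of 0.01 is about 1 to 3 reads, and with no replicate the spread between animals is unknown.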
